A study of Homo sapiens with 9 samples.

Results

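The genes described here are 8 transcripts known as targets of the hypoxia-inducible factors (HIF): ADM, VEGFA, SLC2A1, BNIP3, NDRG1, EPAS1, P4HA1 and PFKFB3. They were found by gene symbol in the platform's probe-to-gene table, and they are 8 of 7713 genes with a probe set of 1 symbol. Each was measured by 1 probe set, and all 8 lay above the intensity filter. The set was chosen by function with the fold changes of these same arrays known, in which ADM and VEGFA stood out at 5 µM against untreated cells and PFKFB3 at 0.5 nM. Differences of the members are therefore given as a description, and nothing is read from how many of them differ.

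RNA came from the established human neuroblastoma line LAN-5, labelled Lan5, and was measured on 9 Affymetrix 1-colour arrays as log2 values with GCRMA as the tool named. There were 3 biological replicates each of untreated cells given culture medium alone, of cells treated with 0.5 nM S100B, and of cells treated with 5 µM S100B. S100B is a calcium-binding protein that astrocytes release and that binds the receptor RAGE. Cells of all groups were grown in complete DMEM to 80% confluence and then plated at 60000 per cm2, the labels name no other agent or genetic change in any group, and the sources used here do not give the treatment time or the oxygen level. The values are of 1 cell line in bulk, so fewer cells making a transcript and less of it per cell cannot be told apart.

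In cells with enough oxygen, prolyl hydroxylases of the EGLN family mark the HIF alpha subunits, HIF1A and EPAS1, for degradation through VHL. When oxygen or the hydroxylases' cofactors run short, the alpha subunits pair with ARNT and bind hypoxia response elements in DNA, whose core reads ACGTG or GCGTG. Their targets include secreted vascular factors, glucose transporters and glycolytic enzymes, mitophagy receptors and collagen hydroxylases. Several of these genes also answer to other signals, VEGFA for instance to the stress factor ATF4. In neuroblastoma and other tumours of the sympathetic lineage EPAS1 is known as the HIF alpha subunit of the chromaffin-like state.

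At 5 µM against untreated cells, VEGFA and ADM lay higher by 0.35 and 0.24 on the log2 scale and PFKFB3 by 0.12. P4HA1 and BNIP3 were at 0.06 and 0.05, and EPAS1, NDRG1 and SLC2A1 were at -0.20, -0.16 and -0.10. At 0.5 nM PFKFB3 was at 0.11, VEGFA at 0.06, ADM at -0.04, and the other 5 between -0.13 and -0.02. By limma, 0 of the 8 had an adjusted p under 0.05 at 5 µM, where 0.292% of the 5830 tested probe sets did, 0 at 0.5 nM, where 0% did, 0 between the doses, where 0.257% did, and 0 for any difference among the groups, where 0.24% did. Among the 8 genes, the arrays at 5 µM lay wholly above the untreated arrays for ADM, VEGFA and PFKFB3, and at 0.5 nM for PFKFB3 alone. That is 3 of 8 at 5 µM, where 2.86% of all 5830 probe sets lay wholly above and 9.47% wholly below, and 1 of 8 at 0.5 nM, where the shares were 1.97% and 5.01%. Between the doses the arrays at 5 µM lay wholly above those at 0.5 nM for ADM alone, where 2.35% of all probe sets lay wholly above and 4.63% wholly below. Fold changes were above 0 in 5 of 8 genes at 5 µM (38.1% of all probe sets), in 2 of 8 at 0.5 nM (40.9%) and in 6 of 8 between the doses (45%).

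**Figure D1:**
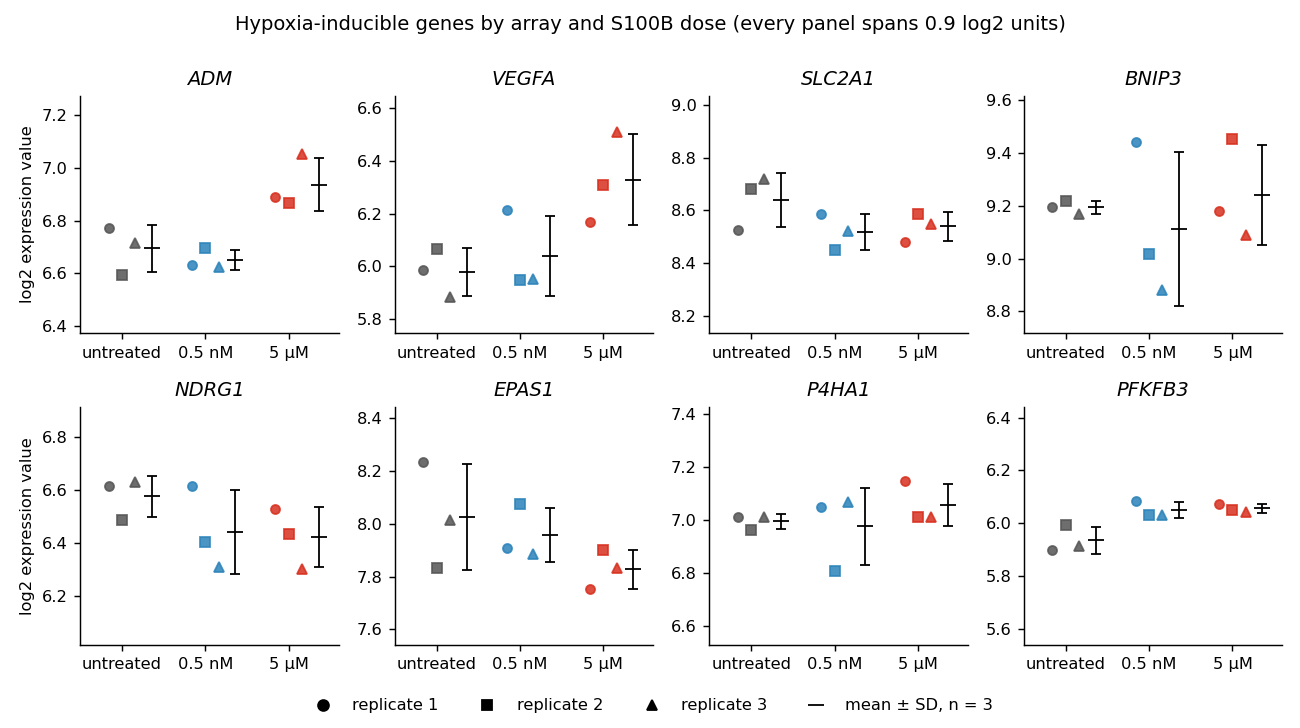
Log2 expression value (vertical axis) of each of the 8 genes on every array, in untreated, 0.5 nM and 5 µM cells (horizontal axis). Symbols are replicates and bars are the mean ± SD of 3 arrays, and each panel spans the same width. For ADM, VEGFA and PFKFB3 the 3 arrays at 5 µM all lie above the 3 untreated arrays, and for the other 5 genes the groups overlap.

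Pearson's correlation over the tested probe sets was 0.993 to 0.997 between replicates and 0.994 to 0.997 between groups. Of 17 measured noradrenergic neuroblastoma markers 15 lay above the filter, among them PHOX2A, HAND2, GATA3, DBH and MYCN, while TH and SLC18A2 did not. Of 11 endothelial markers ENG and PECAM1 lay above it and CDH5, KDR, TEK and VWF below it. The mean level of the 11 was 5.59 to 5.68 log2 at 5 µM, 5.59 to 5.69 at 0.5 nM and 5.65 to 5.68 in untreated cells. The filter kept 5830 of 8746 probe sets. Also above it were 7 of 12 leukocyte markers, CD4 and CD3E among them, 4 of 9 astrocyte and oligodendrocyte markers and 6 of 15 mesenchymal and Schwann-like markers. Lying above the filter therefore does not by itself show that a gene is expressed. Untreated replicate 1 had the lowest mean of 9 hybridisation controls, 8.40 log2, where the other 8 had 8.59 to 9.07. Replicate 3 at 5 µM had the largest 3' minus 5' signal of the ACTB and GAPDH controls, a measure of RNA integrity, at 0.14 and 0.40 log2. Other arrays came close, with ACTB at 0.11 on untreated replicate 3 and GAPDH at 0.37 on replicate 2 at 0.5 nM. The lowest were -0.16 for ACTB on untreated replicate 1 and 0.20 for GAPDH on replicate 1 at 0.5 nM.

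Promoter windows of 250 bases before to 50 bases after each annotated start were those of RefSeq (GRCh38.p14). The set of windows used here gave 7 windows for 6 of the 8 genes, a limit of that set and not of RefSeq. Each of the 7 windows held ACGTG or GCGTG on either strand, as did 55.2% of the 9251 windows of genes on the array and 48.4% of all 35116 windows. The members were picked as HIF targets, and their windows were 65% to 80.7% G and C, so the count is a description only. The windows printed are those of ADM and PFKFB3, since their arrays at 5 µM lay above untreated, and of BNIP3, since it held the most matches. Capitals mark the matches, which read CACGT or CACGC where they lie on the other strand, and CACGTG is a match on both strands that overlap. ADM is at chr11:10304823-10305122, plus strand, the PFKFB3 windows are at chr10:6144671-6144970, plus strand, and chr10:6202682-6202981, plus strand, and BNIP3 is at chr10:131981874-131982173, minus strand.
ADM: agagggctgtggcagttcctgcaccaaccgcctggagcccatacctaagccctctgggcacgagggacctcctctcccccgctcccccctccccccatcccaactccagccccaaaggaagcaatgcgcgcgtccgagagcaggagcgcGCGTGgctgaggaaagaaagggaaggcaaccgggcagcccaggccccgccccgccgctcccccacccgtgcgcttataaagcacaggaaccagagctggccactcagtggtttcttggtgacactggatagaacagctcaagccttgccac
PFKFB3 window 1: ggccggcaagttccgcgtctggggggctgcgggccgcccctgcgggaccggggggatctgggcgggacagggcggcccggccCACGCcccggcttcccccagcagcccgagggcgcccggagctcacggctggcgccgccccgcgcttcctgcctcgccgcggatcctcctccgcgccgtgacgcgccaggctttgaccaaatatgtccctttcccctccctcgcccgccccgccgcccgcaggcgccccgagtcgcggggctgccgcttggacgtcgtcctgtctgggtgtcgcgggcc
PFKFB3 window 2: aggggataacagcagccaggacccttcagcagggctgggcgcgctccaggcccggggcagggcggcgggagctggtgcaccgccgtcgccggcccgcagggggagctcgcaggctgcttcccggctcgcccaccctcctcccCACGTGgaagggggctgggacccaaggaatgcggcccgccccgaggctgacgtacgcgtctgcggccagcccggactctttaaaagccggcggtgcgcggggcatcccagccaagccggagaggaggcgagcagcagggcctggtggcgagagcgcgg
BNIP3: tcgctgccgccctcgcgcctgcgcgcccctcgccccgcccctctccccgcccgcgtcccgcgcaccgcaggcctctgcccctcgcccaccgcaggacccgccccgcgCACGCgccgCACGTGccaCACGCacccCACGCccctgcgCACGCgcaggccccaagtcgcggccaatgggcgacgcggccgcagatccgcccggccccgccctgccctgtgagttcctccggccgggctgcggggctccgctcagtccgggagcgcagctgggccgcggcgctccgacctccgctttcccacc

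ADM held 1 match, GCGTG, beginning 101 bases upstream of the start. PFKFB3 held 1 GCGTG match 168 bases upstream in its first window and a pair of overlapping ACGTG matches 108 and 107 bases upstream in its second. BNIP3 held 6 matches between 143 and 104 bases upstream, and 6 or more were found in 1.19% of windows of genes on the array. SLC2A1, EPAS1 and P4HA1 each held 1, and that of SLC2A1 lay 25 bases downstream of the start. VEGFA and NDRG1 are not shown.

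**Figure D2:**
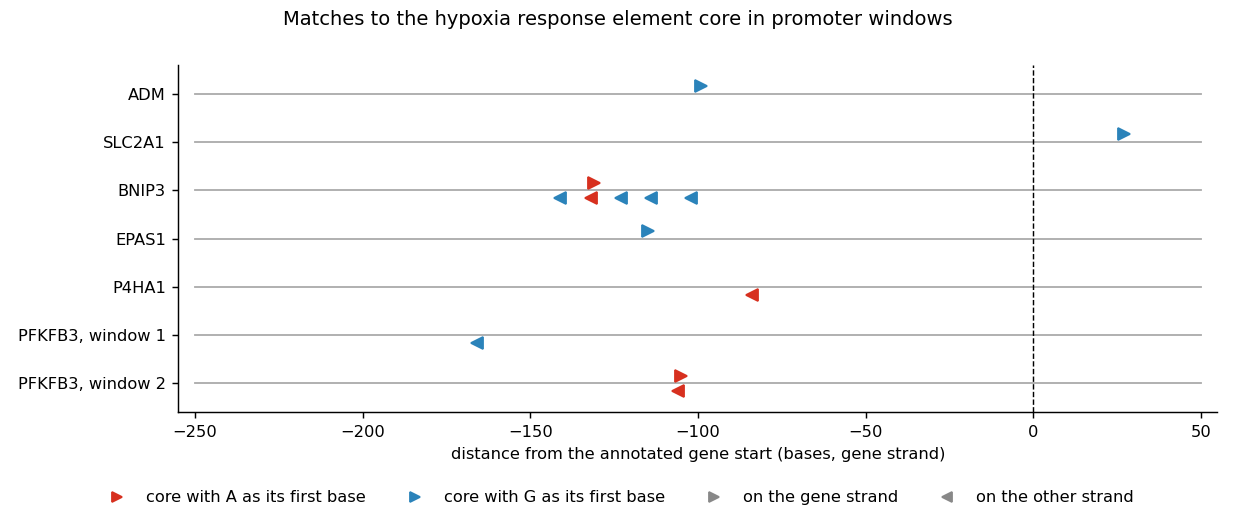
Matches to the hypoxia response element core by distance from the annotated start, in bases along the gene (horizontal axis), in 7 promoter windows of 6 of the genes (rows). Right-pointing marks are on the gene's strand and left-pointing marks on the other, and colour gives the first base of the core. BNIP3 holds 6 matches within 143 to 104 bases upstream and the other windows hold 1 or 2.

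Of the secreted ligands, ADM encodes adrenomedullin, a secreted peptide that widens vessels. It was at 6.77, 6.59 and 6.72 log2 in the 3 untreated cultures, at 6.63, 6.70 and 6.63 at 0.5 nM and at 6.89, 6.87 and 7.05 at 5 µM. All 3 arrays at 5 µM lay above all 6 others, while those at 0.5 nM and untreated overlapped. The mean was 6.94 ± 0.10 at 5 µM (SD, n = 3) and 6.69 ± 0.09 in untreated cells (SD, n = 3), a difference of 0.24 ± 0.07 (SE), or 118.2% of the untreated level. Between the doses ADM was higher at 5 µM by 0.28 ± 0.07 (95% interval 0.14 to 0.43), and of 5830 probe sets 9 had a larger upward difference and 52 a larger one in either direction. At 0.5 nM against untreated it was -0.04, with an interval of -0.19 to 0.11. ADM did not pass in any comparison, with adjusted p of 0.400 at 5 µM against untreated and 0.342 between the doses by limma.

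VEGFA encodes the vascular endothelial growth factor, the main signal for new vessels. It was at 5.98, 6.07 and 5.88 log2 in untreated cells, at 6.21, 5.95 and 5.95 at 0.5 nM and at 6.17, 6.31 and 6.51 at 5 µM. The arrays at 5 µM lay above all untreated ones, but replicate 1 at 0.5 nM lay above replicate 1 at 5 µM. The mean was 6.33 ± 0.17 at 5 µM and 5.98 ± 0.09 in untreated cells (SD, n = 3 each), a difference of 0.35 ± 0.10 (SE), or 127.4% of the untreated level. Of 5830 probe sets 3 had a larger upward difference and 31 a larger one in either direction. Between the doses it was 0.29 ± 0.10, with an interval of 0.07 to 0.51, and at 0.5 nM against untreated it was 0.06, with an interval of -0.16 to 0.28. The spread was wide: the SD within groups was 0.14, above that of 94.2% of the 500 probe sets nearest in level, whereas ADM at 0.08 was above 47.4%.

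Both ligands were highest on replicate 3 at 5 µM, the array with the largest 3' minus 5' signals. Without it the difference of ADM from untreated was 0.18 ± 0.07 and that of VEGFA was 0.26 ± 0.09 (SE). Without untreated replicate 1, the array with the lowest hybridisation controls, the differences were 0.28 for ADM and 0.35 for VEGFA. VEGFA was among the dimmer probe sets tested, with a mean over all arrays of 6.11 where the filter lay at 5.95. The part of RNA integrity or hybridisation in these differences was not tested.

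The receptors of the ligands were measured with related factors in a list of 21 genes, of which 17 had a probe set and 8 lay above the filter. None of the 8 passed at either dose, and their median at 5 µM was -0.02, the same as that of all probe sets. RAMP1, the partner that turns the receptor CALCRL towards the peptide CGRP, had the largest difference. It was at 7.50, 7.48 and 7.47 log2 at 5 µM, against 7.59, 7.71 and 7.77 in untreated cells, a difference of -0.20 ± 0.06 (adjusted p = 0.456 by limma), and the groups did not overlap. CALCRL itself, the receptor through which adrenomedullin acts, differed by -0.0004, RAMP2, its partner for adrenomedullin, by -0.07, and RAMP3 by 0.11. The VEGF relatives VEGFB, VEGFC and PGF differed by -0.05, 0.07 and -0.14. PGF, like RAMP1, lay wholly below untreated at 5 µM, so that 2 of the 8 did (9.47% of all probe sets) and 0 lay wholly above (2.86%). At 0.5 nM the largest differences were RAMP3 at 0.08, RAMP2 at -0.07 and PGF at -0.05. The VEGF receptors FLT1, KDR and FLT4 and the coreceptors NRP1 and NRP2 lay below the filter.

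**Figure D3:**
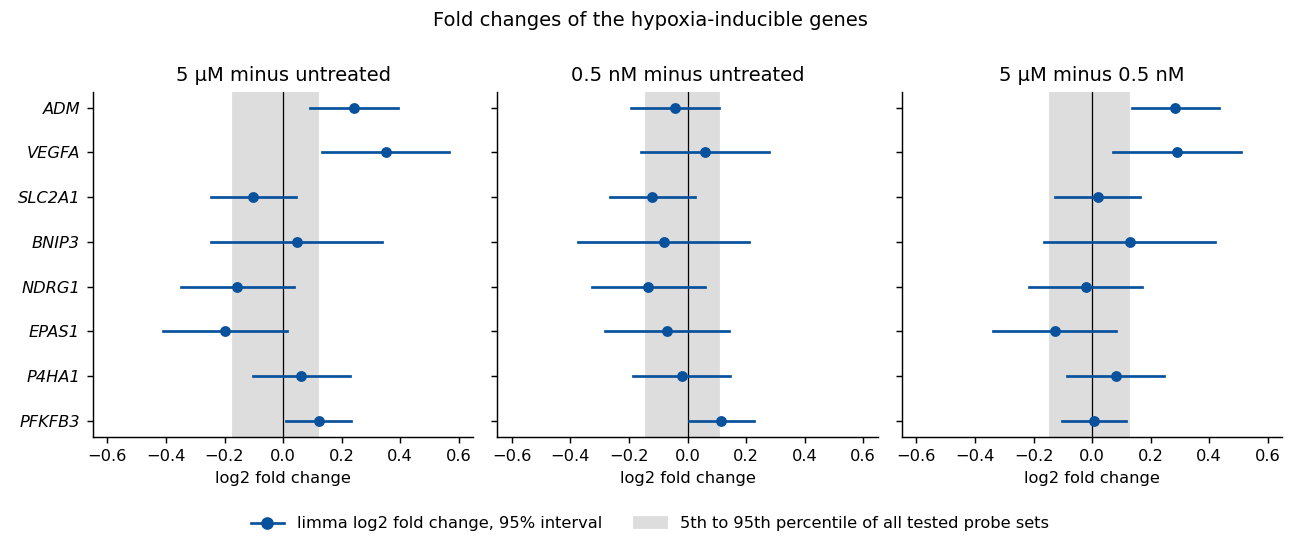
Log2 fold change with its 95% interval from limma (horizontal axis) of the 8 genes (rows) for 5 µM minus untreated, 0.5 nM minus untreated and 5 µM minus 0.5 nM. Grey bands hold the middle 90% of all 5830 tested probe sets. ADM and VEGFA lie to the right of the band in both comparisons that involve 5 µM, at 0.24 and 0.35 against untreated. EPAS1 at -0.20 lies to the left of it at 5 µM against untreated, and just to the right of it lie PFKFB3 at either dose against untreated and BNIP3 between the doses.

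Among the regulators, EPAS1, a HIF alpha subunit, lay lower at 5 µM within a wide spread. It was at 8.23, 7.83 and 8.02 log2 in untreated cells, at 7.91, 8.07 and 7.89 at 0.5 nM and at 7.75, 7.90 and 7.83 at 5 µM. The groups overlapped, since untreated replicate 2 was at the level of the arrays at 5 µM. The difference was -0.20 ± 0.10 (SE, n = 3 each) at 5 µM against untreated and -0.07 ± 0.10 at 0.5 nM. It was -0.09 at 5 µM and 0.03 at 0.5 nM without untreated replicate 1, and -0.30 and -0.17 without untreated replicate 2. The other alpha subunits were also not higher, HIF1A at -0.11 ± 0.09 and HIF3A at -0.05 ± 0.06 at 5 µM. HIF1A was at 11.19, 11.19 and 11.02 log2 at 5 µM, against 11.19, 11.29 and 11.24 in untreated cells, so the nearest arrays were level to the second decimal.

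Of 24 genes of oxygen sensing and HIF machinery 19 had a probe set and 13, EPAS1 among them, lay above the filter, and none of the 13 passed in any comparison. The median was -0.02 at 5 µM against untreated and -0.02 at 0.5 nM, beside -0.02 for all probe sets in each. EGLN1, the main oxygen-sensing hydroxylase, differed by 0.03 ± 0.05 at 5 µM. The elongins ELOB and ELOC and RBX1, parts of the VHL ligase complex, differed by 0.03, -0.02 and -0.05. CREBBP, a HIF coactivator, was 0.17 ± 0.10 higher, but that rested on replicate 3 at 8.13 log2 against 7.68 on both other arrays at 5 µM. At 0.5 nM the largest differences were those of COPS5, a signalosome subunit, at -0.12, HIF1A at -0.11 and OS9, a lectin of endoplasmic reticulum degradation, at -0.10.

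ARNT, the subunit both alpha subunits need, lay below the filter. It was at 5.42, 5.57 and 5.55 log2 in untreated cells, at 5.67, 5.48 and 5.52 at 0.5 nM and at 5.72, 5.73 and 5.86 at 5 µM. The arrays at 5 µM lay above all 6 others. Fitted without the filter the difference from untreated was 0.26 ± 0.07 (SE, limma's adjusted p = 0.351), which did not pass. VHL, CUL2, CITED2, EP300 and SIAH1 also lay below the filter and differed by 0.02 to 0.12.

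PFKFB3 and SLC2A1 act in glucose metabolism, and neither passed the test. PFKFB3, which makes the main activator of phosphofructokinase, was at 5.90, 5.99 and 5.91 log2 in untreated cells, at 6.08, 6.03 and 6.03 at 0.5 nM and at 6.07, 6.05 and 6.04 at 5 µM. All 6 treated arrays lay above the 3 untreated ones, and the doses overlapped. The difference from untreated was 0.12 ± 0.05 at 5 µM, or 108.8%, and 0.11 ± 0.05 at 0.5 nM, or 108.3% (SE, n = 3 each). Between the doses it was 0.01, with an interval of -0.10 to 0.12. PFKFB3 had a mean of 6.01, close to the filter at 5.95, and its SD within groups of 0.03 was above that of 6.6% of the 500 probe sets nearest in level.

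SLC2A1, the widespread glucose transporter of the plasma membrane, was at 8.52, 8.68 and 8.72 log2 in untreated cells, at 8.59, 8.45 and 8.52 at 0.5 nM and at 8.48, 8.59 and 8.55 at 5 µM. The groups overlapped, and both doses lay lower in the mean. The difference was -0.10 ± 0.07 at 5 µM and -0.12 ± 0.07 at 0.5 nM (SE, n = 3 each), and without 1 array it ranged from -0.16 to -0.06 and from -0.18 to -0.08, with the ends set by untreated replicates 1 and 3. Of 25 other genes of glucose transport and glycolysis 19 were above the filter and none passed, with a median of -0.04 at 5 µM and -0.03 at 0.5 nM. Of the 19, 4 lay wholly below untreated at 5 µM (9.47% of all probe sets) and 0 wholly above (2.86%). ALDOC, a brain aldolase that lay wholly below, differed by -0.22 ± 0.06, and PKM, pyruvate kinase, by -0.23 ± 0.10 with groups that overlapped. Untreated replicate 3 of PKM was at 10.96 log2, against 10.63 and 10.66 on the other untreated arrays. ENO2, the neuronal enolase, was at 0.16 ± 0.10, LDHA at -0.01 and PGK1 at -0.07. At 0.5 nM the largest were ALDOA at 0.15, PFKP at -0.13 and ENO2 at 0.11.

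BNIP3, NDRG1 and P4HA1 act in the cell's own adaptation. BNIP3, a mitochondrial receptor for mitophagy, was at 9.19, 9.22 and 9.17 log2 in untreated cells, at 9.44, 9.02 and 8.88 at 0.5 nM and at 9.18, 9.45 and 9.09 at 5 µM. The untreated arrays agreed closely and each dose had 1 array far above the others. The difference was 0.05 ± 0.13 at 5 µM and -0.08 ± 0.13 at 0.5 nM (SE, n = 3 each), and it changed sign at 5 µM without replicate 2, to -0.06. At 0.5 nM it was -0.25 without replicate 1 and 0.03 without replicate 3. Its SD within groups, 0.20, was the largest of the 8 and above that of 92.2% of the 500 probe sets nearest in level.

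NDRG1, a stress-induced protein linked to differentiation, was at 6.61, 6.49 and 6.63 log2 in untreated cells, at 6.62, 6.40 and 6.31 at 0.5 nM and at 6.53, 6.43 and 6.30 at 5 µM. The groups overlapped and both doses lay lower in the mean, by -0.16 ± 0.09 at 5 µM and -0.13 ± 0.09 at 0.5 nM (SE, n = 3 each). NDRG1 was at -0.10 at 5 µM without replicate 3 there, and at 0.5 nM it was at -0.22 without replicate 1 and -0.07 without replicate 3. P4HA1, the catalytic subunit of collagen prolyl hydroxylase, was at 7.01, 6.96 and 7.01 log2 in untreated cells, at 7.05, 6.81 and 7.07 at 0.5 nM and at 7.15, 7.01 and 7.01 at 5 µM. Its groups overlapped too, with differences of 0.06 ± 0.07 at 5 µM and -0.02 ± 0.07 at 0.5 nM, which without 1 array ranged from 0.02 to 0.09 and from -0.07 to 0.06.

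Of 65 other HIF targets 33 were above the filter, with medians of -0.0023 at 5 µM and -0.01 at 0.5 nM against untreated, beside -0.02 and -0.02 for all probe sets. The transferrin receptor TFRC, which is also controlled by iron, passed between the doses, as 1 of the 33. It was at 10.85, 11.03 and 11.16 log2 at 5 µM, against 10.66, 10.42 and 10.50 at 0.5 nM, and rose by 0.49 ± 0.08 with limma's adjusted p = 0.0483. Untreated cells were at 10.54, 10.54 and 10.55, and the difference of 5 µM from them, 0.47 ± 0.08, had an adjusted p of 0.0563. The call between the doses held in 4 of 17 alternatives added after the data were seen, with adjusted p of 0.0190 to 0.348, and without replicate 3 at 5 µM TFRC was at 0.42 with an adjusted p of 0.123. Targets of the same kind as the members did not pass, among them BNIP3L, a mitophagy receptor, at -0.05, P4HA2 at -0.03, ANGPTL4, a lipase inhibitor, at 0.08 and HILPDA, a lipid droplet protein, at -0.09 at 5 µM. The next largest differences at 5 µM were PPP1R3C, a glycogen-targeting subunit, at -0.20 and the repressor KLF10 at 0.18, and at 0.5 nM RBPJ at -0.21, PPP1R3C at -0.18 and the glycogen synthase GYS1 at 0.17. TFRC and ANGPTL4 were the 2 of 33 that lay wholly above untreated at 5 µM (2.86% of all probe sets). Another 2 lay wholly below (9.47%), PPP1R3C among them.

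**Figure D4:**
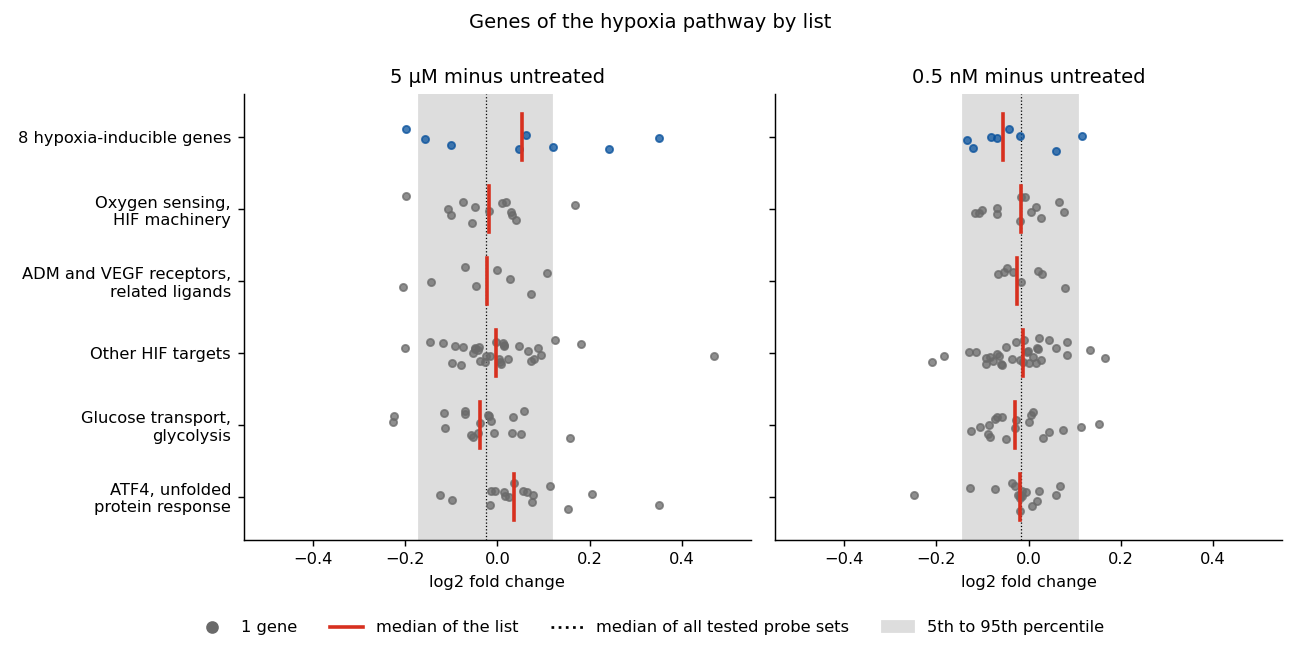
Log2 fold change (horizontal axis) of the genes above the filter in 6 lists (rows), for 5 µM minus untreated and 0.5 nM minus untreated, with list medians in red, the median of all tested probe sets as a dotted line and their middle 90% in grey. VEGFA appears in the top and the bottom list. The rightmost point at 5 µM is TFRC at 0.47, and the list medians lie within 0.08 of the median of all probe sets.

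VEGFA also stands in the list of ATF4 and unfolded protein response genes, of which 17 of 25 lay above the filter. None of the 17 passed, and the median was 0.04 at 5 µM and -0.02 at 0.5 nM. At 5 µM 12 of 17 lay above 0, as did 38.1% of all probe sets. CEBPB, a stress-responsive transcription factor, was higher by 0.20 ± 0.09 with groups that overlapped, and it was highest on replicate 3 at 5 µM. XBP1, a factor of the unfolded protein response, was higher by 0.15 ± 0.06 with groups that did not overlap. VEGFA and XBP1 were the 2 of 17 that lay wholly above untreated at 5 µM (2.86% of all probe sets). TRIB3 was the 1 of 17 that lay wholly below (9.47%). ATF4 itself differed by 0.11 ± 0.08 and its targets ASNS and TRIB3 by 0.07 and -0.10. At 0.5 nM ERN1, the sensor upstream of XBP1, was at -0.25, ASNS at -0.13 and the degradation factor SEL1L at -0.07.

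Likeness over the 9 arrays was measured for ADM, VEGFA and PFKFB3 as the root mean square difference of log2 values after each gene's own mean was taken off, over 5146 other genes. Nearest to ADM were SREBF1, a sterol and lipid regulator, at 0.06, MYLIP, a ligase that degrades the LDL receptor, at 0.07, and STAC, CXADR and INPP1 at 0.08, where the median gene stood at 0.17. Nearest to VEGFA were NR2F1 at 0.08, CEBPB at 0.09, ALDH6A1 at 0.09, TFRC at 0.10 and SYPL1 at 0.11, where the median gene stood at 0.21. Nearest to PFKFB3 were EIF3E, UPP1, CNBP, ACTA1 and RAB36 at 0.03 to 0.04, where the median gene stood at 0.11. Other members were not among these genes: ADM and VEGFA differed from each other by 0.13, VEGFA and EPAS1 by 0.29, and P4HA1 and PFKFB3, the closest pair of the 8, by 0.10.

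**Figure D5:**
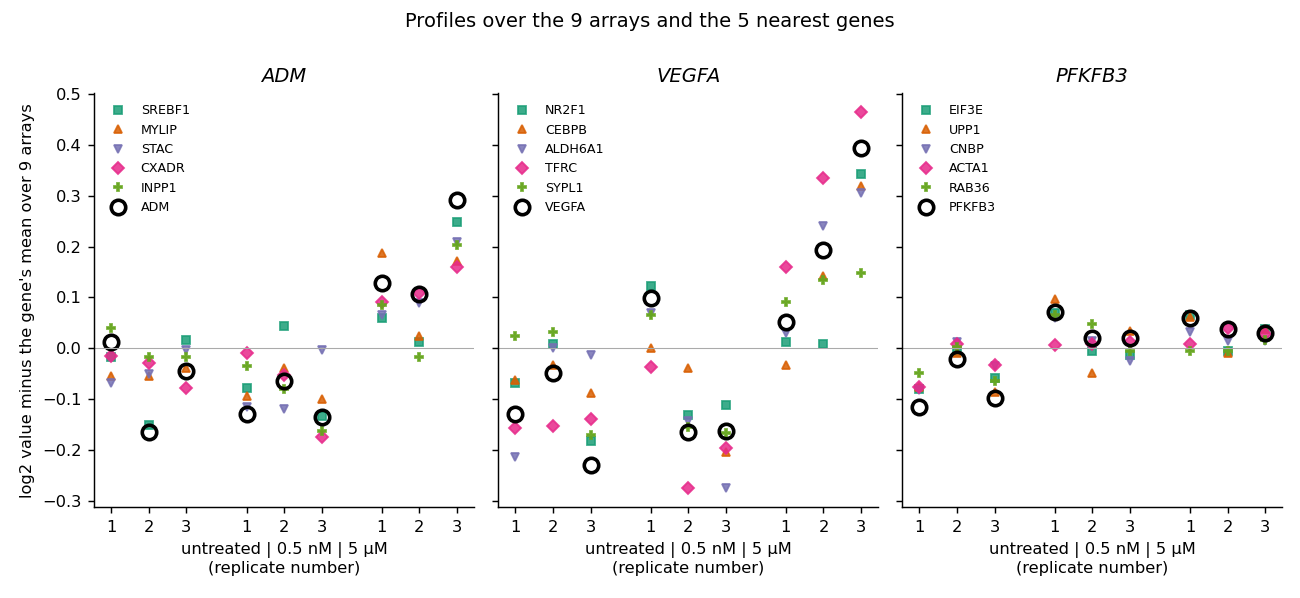
Log2 value minus each gene's own mean over the 9 arrays (vertical axis) by array (horizontal axis), for ADM, VEGFA and PFKFB3 as black rings and for the 5 genes nearest to each as coloured marks. The rings of ADM and VEGFA and all 5 genes nearest to VEGFA lie above 0 on replicate 3 at 5 µM, and PFKFB3 lies below 0 on the untreated arrays only.

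The adjusted p of the 8 genes by limma over all probe sets was 0.400 to 0.974 at 5 µM, 0.9999 at 0.5 nM, 0.342 to 0.994 between the doses and 0.517 to 0.985 for any difference. At an unadjusted p under 0.05 there were 3 of the 8 at 5 µM, where 6.84% of all probe sets stood, 1 at 0.5 nM, where 3.29% did, 2 between the doses, where 4.65% did, and 2 for any difference among the groups, where 4.84% did. The median over the 8 was 0.05 at 5 µM and -0.06 at 0.5 nM, beside -0.02 for all probe sets in each. For a single gene, 0.1 is the smallest two-sided p that exact permutation of 3 and 3 arrays allows. Half-widths of the 95% intervals had a median of 0.156 over all probe sets, which limits the differences that can be seen.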

How the data were processed

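RNA of 9 LAN-5 cultures was labelled with biotin, from 5 µg of total RNA, and hybridised to Affymetrix arrays, per the labels' protocols. The values deposited by the authors are log2 expression values per probe set. They were made with GCRMA, per the submitters' processing notes, which give neither version nor settings. The log2 scale was read from the values, which run from 4.37 to 14.5 with array medians of 6.60 to 6.64. Signal over background is unknown without scanner data, and the number of arrays limits the precision.

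Groups and replicate numbers came from the sample titles. Of 8793 probe sets, 47 controls and 2916 dim probe sets (mean over all arrays at or below 5.95) were left out, and 5830 were tested. Symbols came from the platform annotation, updated by Entrez identifier through RefSeq: of 8746 probe sets 7840 had 1 symbol (7838 matched), 388 several and 518 none. Levels are not compared between genes, since probe sets differ in brightness.

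All 9 arrays were fitted at once with limma 3.58.1 in R 4.3.3 (lmFit, eBayes, 1 factor of 3 groups), with a prior of 4.55 degrees of freedom, and p-values were adjusted by Benjamini-Hochberg over the 5830. Values with SE and intervals are those of this fit. Where a list gene had several probe sets, the brightest was used. The procedure was tested on simulated data with noise drawn separately for each array, which does not cover arrays that deviate together.

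All members are named. Of each of the 6 pathway lists, genes past the threshold and the 3 with the largest difference at each dose against untreated are named, with genes of the oxygen-sensing list, and the 5 genes nearest in profile. BNIP3L, P4HA2, ANGPTL4, HILPDA, LDHA, PGK1, CALCRL, RAMP2, VEGFB, VEGFC, XBP1, ATF4, TRIB3 and the receptors below the filter were picked with their values in view. The members and lists were chosen with earlier results of these data known. The 5 marker lists cover noradrenergic neuroblastoma, mesenchymal and Schwann-like cells, endothelium, leukocytes, and astrocytes and oligodendrocytes. Promoter sequences and coordinates are those of RefSeq, GRCh38.p14. Alternatives were other filters, quantile normalization, median centring, an intensity trend in the prior, the replicate number as a block, only the groups compared, an unmoderated test and leaving out each array.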

Additional observations from a re-analysis of the deposited data

How the results depend on the processing

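None of the 8 genes passed under any alternative run, in any comparison. At 5 µM against untreated ADM ranged from 0.18 to 0.28 with an adjusted p of 0.343 to 0.962, VEGFA from 0.26 to 0.43 with 0.279 to 0.761, and PFKFB3 from 0.10 to 0.15 with 0.479 to 0.962. EPAS1 ranged from -0.30 to -0.09 and NDRG1 from -0.21 to -0.10 there. Other filters, priors, tests and the block leave a fold change itself as it is, so the ranges of fold changes come from leaving out arrays and from rescaling. Signs of BNIP3 and of some other fold changes under 0.1 turned when single arrays were left out. That of P4HA1 at 0.5 nM against untreated also turned under quantile normalization, to 0.003, and under median centring, to 0.008. Over the whole table, 17 probe sets passed at 5 µM against untreated, 1 with an unmoderated test, 7 in a fit of the 2 groups and 4 to 17 without 1 array. Between the doses 15 passed, 1 unmoderated, 4 in a fit of the 2 groups and 3 to 14 without 1 array. For any difference 14 passed, 1 unmoderated and 3 to 15 without 1 array. At 0.5 nM 0 passed throughout. The replicate numbers are shared by the groups but were not taken as pairs, since the labels give no batch. Same-numbered arrays deviated together with correlations of -0.0004 to 0.33, and differently numbered arrays with -0.367 to 0.348. The best partner had the same number in 9 of 18 cases. Replicate 3 arrays correlated with each other at 0.298 to 0.33, and every pair of a replicate 3 array with another number was negative. Whether same-numbered arrays share a batch was not tested. With the replicate block 15 probe sets passed at 5 µM against untreated, 0 at 0.5 nM, 15 between the doses, 16 for any difference, and 0 of the 8 genes. VEGFA, PFKFB3 and NDRG1 fell out of the stricter filter, so have no value there. Fits without 1 array assume that the remaining arrays of that group vary like the others.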

Other observations

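On replicate 1 at 0.5 nM 6 of the 8 genes lay above their group mean, BNIP3 by 0.33, VEGFA by 0.18 and NDRG1 by 0.17 on the log2 scale, and the mean over the 8 was 0.10. The median over all probe sets on that array was 0.03 above the group mean. Replicates 2 and 3 at 0.5 nM each had 2 of the 8 above the group mean, where the median over all probe sets was -0.008 and -0.02. On replicate 3 BNIP3 was at -0.23, NDRG1 at -0.14 and P4HA1 at 0.09. A gene's deviations cancel out within a group, so low values on these arrays go with the high ones on replicate 1.

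P4HA1 had the same value, 7.01, on 4 of the 9 arrays, and PFKFB3 shared 1 value, 6.03, between 2 arrays at 0.5 nM. Of all 5830 tested probe sets, 377 (6.47%) held 1 value on 4 or more arrays. How far this narrows the spread within groups was not tested.

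In the marker lists, 13 of 15 noradrenergic neuroblastoma genes above the filter lay above 0 at 5 µM against untreated, with a median of 0.09 and none past the threshold, where 38.1% of all probe sets lay above 0 with a median of -0.02. At 0.5 nM 10 of 15 lay above 0 with a median of 0.05, where 40.9% of all probe sets did with a median of -0.02. Mean levels of the 17 measured genes overlapped, at 9.18 to 9.32 log2 at 5 µM and 9.08 to 9.25 in untreated cells. The range at 0.5 nM overlapped that of untreated cells too. Among untreated arrays replicate 2 was lowest for CHGA, STMN2, DBH, DDC, GATA2, PHOX2A, HAND1, CHGB, MYCN and HAND2. Replicate 2 was not lowest for GATA3, ISL1, SOX11, EYA1 and SLC18A1. How far these counts rest on that array was not tested. At 5 µM SLC18A1, the vesicular monoamine transporter of chromaffin cells, was at 0.21 and the granin CHGA at 0.20. Of 6 mesenchymal and Schwann-like markers above the filter 2 lay above 0 at 5 µM, S100A6 at 0.11 among them. Another 2 lay wholly below untreated there (9.47% of all probe sets), ANXA2 at -0.22 and COL1A2 at -0.08, and 0 lay wholly above (2.86%). The median of the 6 was -0.01, where that of all probe sets was -0.02. The median was -0.02 for 7 leukocyte markers, with CD74 at -0.32, -0.06 for 4 astrocyte and oligodendrocyte markers and -0.08 for ENG and PECAM1. Of the 7, 2 lay wholly below untreated at 5 µM (9.47% of all probe sets) and at 0.5 nM (5.01%), CD74 and HLA-DRA each time. Of the 7, 0 lay wholly above untreated at 5 µM (2.86%). ENG also lay wholly below untreated at 5 µM.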
